A study of Mus musculus with 9 samples.

Results

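Transcripts of 10 genes of the meiotic spindle were examined in growing mouse oocytes with 2 X chromosomes, with a single X, or with an X and a Y. The genes were chosen by name and are the Aurora kinases Aurka, Aurkb and Aurkc, the polo kinase Plk1, the spindle factors Tpx2, Tacc3 and Ckap5, and the spindle pole components Pcnt, Cep192 and Nedd1. All 10 of 10 were found among the 28052 genes of the count matrix. Their loci are autosomal and lie on chromosomes 2 (Aurka, Tpx2, Ckap5), 5 (Tacc3), 7 (Aurkc, Plk1), 10 (Pcnt, Nedd1), 11 (Aurkb) and 18 (Cep192) of GRCm38.

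The study asked how the sex chromosome complement acts on transcription while the oocyte grows, and sequenced 3 pools each of XX, XO and XY oocytes. XY females and their XX littermates were daughters of B6.Y-TIR males, which carry a Y chromosome of Tirano origin on the C57BL/6J (B6) background, and of B6 females. XO females were daughters of B6 females and of males carrying the X-linked Patchy fur (Paf) mutation, which came on C3H/HeSnJ and was bred onto B6 by backcrossing, so breeding scheme and genotype cannot be told apart where XO is compared. No transgene or treatment was involved, the labels give C57BL/6 as the strain and 18 days post partum as the age of all 9 pools, and each pool held 30 oocytes from dissociated ovaries, of which 10 measured 50–55 μm and 20 measured 55–60 μm. The number of females behind a pool is not given in the sources used here, and fewer expressing oocytes in a pool cannot be told apart from less transcript per oocyte.

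An oocyte builds its meiotic spindle without centrioles. Microtubules are instead nucleated by many acentriolar organizing centers, which hold pericentrin, CEP192, NEDD1 and γ-tubulin, and around the chromosomes with the help of the GTPase Ran. Aurora kinase A, activated by TPX2, and Polo-like kinase 1 mature these centers, whereas Aurora kinases B and C act at the chromosomes within the chromosomal passenger complex. Aurora kinase C is found mainly in germ cells. Growing oocytes store many messages of the later divisions, and the cytoplasmic polyadenylation element (CPE) close to the 3′ end is a known signal by which stored messages are held and later translated.

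The 3′ ends are shown first, because the CPE is what the 3 Aurora kinase messages shared. The motif TTTTAT was searched on the sense strand in the last 100 bases of 1 transcript per gene in Gencode vM21 (GRCm38), and TTTTAAT was searched in the same windows. TTTTAT was present in 5 of the 10 genes, namely Aurka, Aurkb, Aurkc, Ckap5 and Pcnt, while TTTTAAT was found in none of the 10. TTTTAT occurred in the same window of 15.6% of the 8798 tested protein-coding genes and in 12.7% of all 21849. Each site is given with 12 bases on either side, the motif in capitals, in the last exon and on the strand of the gene.
Aurka, chr2:172356237-172356266, minus strand: ttaaaggctattTTTTATgttggagttctg
Aurkb, chr11:69051616-69051645, plus strand: tgaagaacaacaTTTTATaataaagtctta
Aurkc, chr7:7003036-7003065, plus strand: gcttgttttctcTTTTATgaagtgatgtta
Ckap5, chr2:91620625-91620654, plus strand: aatttaagagacTTTTATaaataaagtttg
Pcnt, chr10:76351284-76351313, minus strand: tcagtttattctTTTTATtggcaaaacaaa
In the messages of Aurkb and Ckap5 the motif lay next to the polyadenylation signal AATAAA, whereas AATAAA was not present in this window of Aurka or Aurkc. The 5 genes with the motif included those with the highest and the lowest mean level of the 10, as given below, and no translation was measured.

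Libraries were made by Smart-seq3, which tags the 5′ end of each molecule with a unique molecular identifier (UMI), so 1 UMI stands for 1 captured molecule. The pools held between 2130145 and 3157338 gene UMIs. Levels are given as normalized CPM, the UMI count of a gene divided by the gene total of the pool and by a factor from ERCC spike-in RNAs, per 1000000. The factor compares the make-up of the spike-ins between pools and does not scale to their total, which was done only as an alternative. This factor was between 0.703 and 0.847 in XO pools and between 1.01 and 1.25 in XX and XY pools, and with it the median gene was lower in XX than in XO by a log2 difference of -0.46. When the pools were instead scaled to the genes themselves (trimmed mean of M values, TMM) this median was -0.11, so TMM values are given beside the differences. All 10 oocyte markers examined were present in every pool. Of 10 granulosa cell markers 7 were in the matrix, and their sum ranged from 48.0 to 66.7 normalized CPM in XX, from 55.9 to 67.2 in XO and from 56.6 to 92.1 in XY pools. Over all 9 pools Nr5a2 had 699 UMIs, Cyp19a1 463, Kitl 292, Inhba 32, Fshr 31, Amhr2 3 and Inha 1. XO1 stood apart from the other XO pools. Over all tested genes, the SD of the log2 difference was 1.66 and 1.82 between XO1 and XO2 or XO3 but 0.552 between XO2 and XO3, and oocyte markers made up 1.29% of gene UMIs in XO1 against 1.74 and 1.82%. XY1 was set apart less clearly, with SDs of 0.781 and 1.09 to XY2 and XY3 against 0.589 between these, and oocyte markers at 1.72% against 2.41 and 1.99%. The SDs between XX pools were 0.474 to 0.702. In its own heatmap of highly expressed and variable genes, the study named XX1, XO2 and XY1 as the pools less like their replicates. Results are also given without XO1 and XY1.

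The 10 genes differed widely in level. Averaged over the 9 pools, Aurkc was the most abundant at 395 normalized CPM and was followed by Ckap5 at 250, Tpx2 at 225 and Tacc3 at 199. A middle group was formed by Nedd1 at 78.4, Aurka at 75.4 and Cep192 at 73.4, and a low group by Plk1 at 7.03, Pcnt at 6.62 and Aurkb at 1.05. These groups describe the means, and the order changed from pool to pool, also between the first group and the middle one. In XO1 Aurkc (18.6) lay below Nedd1 (60.6) and Cep192 (88.0), and in XO3 Aurka (347) lay above Ckap5 (204). Ckap5 was above Aurkc in XX1, XX2, XO1 and XY1. Aurkb was the lowest of the 10 in all 9 pools. Of the 9 pools XO3 had the highest level of Aurka, Aurkc, Plk1, Tpx2, Tacc3, Cep192 and Nedd1, while XO1 had the lowest level of Aurka, Aurkc, Tpx2 and Tacc3 and the highest of Ckap5. For XO3 this holds with spike-in factors. With TMM factors XO3 stayed highest for Aurka, Plk1 and Nedd1. XO2 was then highest for Aurkc (813 against 748 in XO3), Tpx2 (359 against 333) and Tacc3 (281 against 253). XY1 was then highest for Cep192 (95.4 against 74.2 in XO3).

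**Figure D1:**
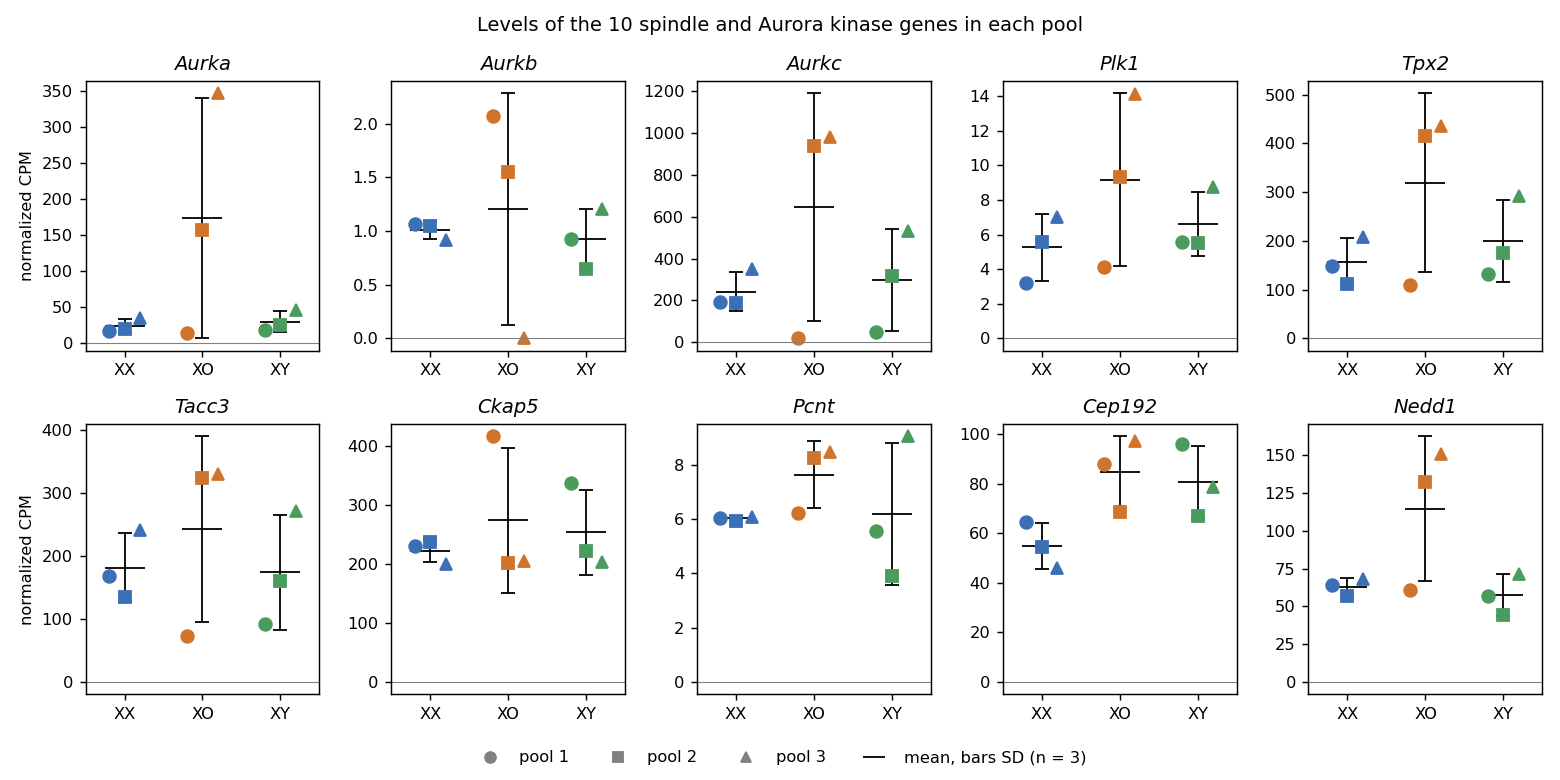
Levels of the 10 genes in normalized CPM (linear vertical axes from 0) in the XX, XO and XY pools, 1 symbol per pool, with the mean and SD of 3 pools. Circles, the pools numbered 1, lie lowest in XO for Aurka, Aurkc, Tpx2, Tacc3 and Nedd1 and highest for Ckap5, where XO1 reached 416 and the other XO pools 201 and 204.

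Aurka encodes the kinase of the spindle poles. It was detected at 17.1, 18.9 and 34.4 normalized CPM in XX1, XX2 and XX3, at 14.5, 158 and 347 in XO1, XO2 and XO3, and at 17.7, 25.1 and 45.9 in XY1, XY2 and XY3. XO2 and XO3 were above all XX and XY pools, whereas XO1 was below all of them. XX oocytes had a mean of 23.5 ± 9.53 (SD, n = 3), XO oocytes of 173 ± 167 and XY oocytes of 29.5 ± 14.6. XO3 exceeded XO1 by 23.9-fold, which is more than the difference between the means of XO and XX.

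Aurkc, which encodes the Aurora kinase of germ cells, was expressed at 191, 186 and 350 normalized CPM in XX1, XX2 and XX3. The levels were 18.6, 939 and 979 in XO1, XO2 and XO3 and 47.9, 314 and 531 in XY1, XY2 and XY3. Both pools numbered 1 of XO and XY were below all XX pools, and XO2 and XO3 were above every other pool. XO3 exceeded XO1 by 52.5-fold and XY3 exceeded XY1 by 11.1-fold, while XX3 exceeded XX1 by 1.83-fold. The spread within XO and XY was therefore larger than any difference of means between the genotypes, which were 242 ± 93.4 for XX, 646 ± 543 for XO and 298 ± 242 for XY (SD, n = 3).

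The region upstream of these 2 genes is given because their levels spread most between pools. It was taken from the RefSeq promoter table (GRCm38.p6), which held 6 of the 10 genes, and ends at the base before the annotated start. CCAAT, a box common in cell cycle promoters, was searched on both strands and is in capitals.
Aurka, chr2:172370536-172370820, minus strand: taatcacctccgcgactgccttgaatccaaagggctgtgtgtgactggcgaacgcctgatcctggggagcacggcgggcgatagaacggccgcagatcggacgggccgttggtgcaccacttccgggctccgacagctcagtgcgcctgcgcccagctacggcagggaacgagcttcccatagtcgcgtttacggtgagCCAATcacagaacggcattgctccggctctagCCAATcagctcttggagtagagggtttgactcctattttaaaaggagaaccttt
Aurkc, chr7:6995135-6995299, plus strand: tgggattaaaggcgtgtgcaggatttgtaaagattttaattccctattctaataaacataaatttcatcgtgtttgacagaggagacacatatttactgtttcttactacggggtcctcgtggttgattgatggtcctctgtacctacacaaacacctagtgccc
The upstream region of Aurka held 2 CCAAT boxes and was 58.6% G and C, whereas that of Aurkc held none and was 40% G and C. In the full windows of 300 bases around the RefSeq starts, CCAAT was found in 5 of the 6 genes of the table (Aurka, Aurkc, Plk1, Ckap5, Pcnt) and in 39.8% of the promoters of tested genes. TTTGAA, the core of the cell cycle homology region, was found in 3 of the 6 (Aurka, Plk1, Ckap5) against 14.0%. TAATTG and TAATTA, bound by the oocyte factor NOBOX, were found in 0 of the 6, against 5.59% and 3.50%.

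Aurkb, which encodes the chromosomal passenger kinase of somatic cells, was near the limit of detection. It had 3, 3 and 3 UMIs in XX1, XX2 and XX3, 4, 3 and 0 in XO1, XO2 and XO3, and 2, 2 and 4 in XY1, XY2 and XY3. With 3 UMIs as the limit that a count of 0 allows, the absence of UMIs in XO3 is compatible with up to 1.69 normalized CPM. Aurkb did not pass the filter on low counts, and a difference between genotypes was not detectable at this depth.

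Shares among the 3 Aurora kinases do not depend on how the pools were scaled. Aurkc made up 91.3, 90.3 and 90.8% of Aurora UMIs in XX1, XX2 and XX3. Its share was 52.9, 85.5 and 73.8% in XO1, XO2 and XO3 and 72.0, 92.4 and 91.9% in XY1, XY2 and XY3. All XO pools were below all XX pools, whereas XY pools overlapped with both. The 52.9% of XO1 rests on 68 Aurora UMIs (exact 95% binomial interval 40.4 to 65.2%), while XO2 and XO3 had 2124 and 2350 (83.9 to 87.0% and 72.0 to 75.6%). These intervals cover counting error only.

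The counterpart of this difference was Aurka, since Aurkb contributed at most 5.88% of Aurora UMIs (4 UMIs in XO1). The share of Aurka was 8.16, 9.20 and 8.93% in XX1, XX2 and XX3, 41.2, 14.4 and 26.2% in XO1, XO2 and XO3, and 26.6, 7.37 and 7.93% in XY1, XY2 and XY3. XX and XO did not overlap, with means of 8.77 ± 0.538% and 27.2 ± 13.4% (SD, n = 3). The two-sided exact permutation test of 3 against 3 pools gave p = 0.1 for both Aurka and Aurkc, the smallest it allows, and 0.9 after adjustment over the 18 tests of shares and ratios. The shares of XX and XY differed by less than the spread of the pools (exact permutation p = 1 for both genes). Between XY and XO pools of the same number, which were taken as paired, the share of Aurka was lower in XY in 3 of 3 pairs, with a mean XY minus XO difference of -13.3 ± 5.74 percentage points (SD), and that of Aurkc was higher in 3 of 3 pairs, with a difference of 14.7 ± 6.73. The pairing was inferred from these same data and is not shown for XO2 and XY2. The paired exact permutation test, added after the values had been seen, gave p = 0.25 for both, the smallest that 3 pairs allow, and 0.75 after adjustment over the 6 shares and ratios. In XO1 and XY1 the share of Aurka was high while the level of Aurka was low. There Aurkc lay further below the other pools of its genotype than Aurka did.

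**Figure D2:**
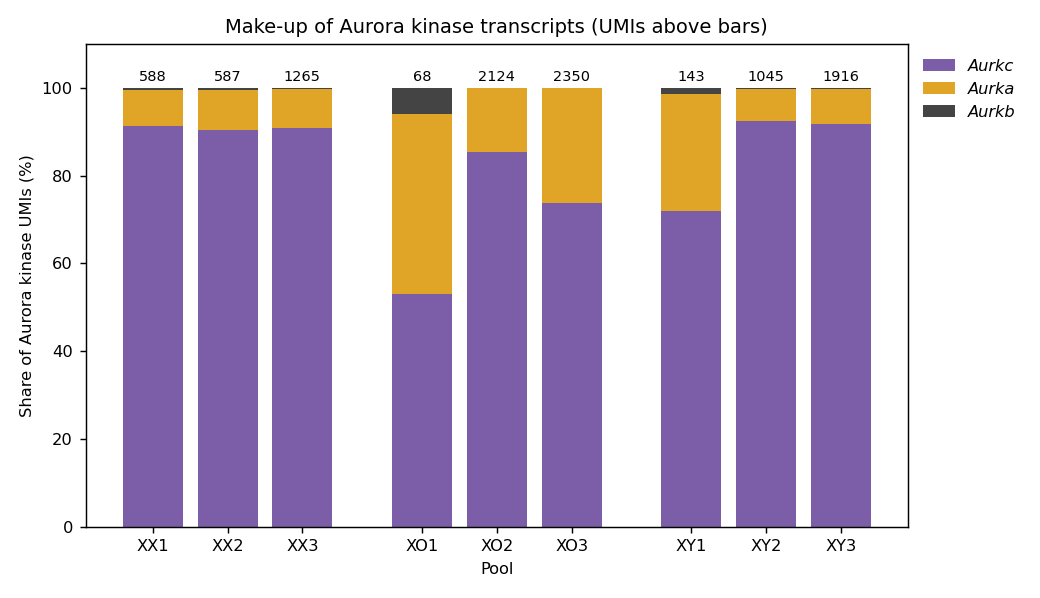
Share of Aurkc, Aurka and Aurkb among Aurora kinase UMIs (percent, stacked bars from 0 to 100) in each of the 9 pools, with the number of Aurora UMIs above each bar. The Aurka share is 8.16 to 9.20% in the 3 XX pools and 14.4 to 41.2% in the 3 XO pools, and XO1 and XY1 rest on the fewest UMIs, 68 and 143.

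Tpx2 encodes the microtubule-binding activator of Aurora kinase A. It was found at 149, 111 and 209 normalized CPM in XX1, XX2 and XX3, at 109, 415 and 436 in XO1, XO2 and XO3, and at 132, 175 and 293 in XY1, XY2 and XY3. XO2 and XO3 were again above all other pools and XO1 below all of them, but XO3 exceeded XO1 by only 4.01-fold. Consequently the number of Tpx2 UMIs per Aurka UMI, with 0.5 added to both, was 8.63, 5.84 and 6.04 in XX1, XX2 and XX3 and 7.36, 6.94 and 6.36 in XY1, XY2 and XY3. It was 7.39 in XO1 but 2.63 in XO2 and 1.26 in XO3. On the log2 scale the mean was 2.75 ± 0.312 for XX, 1.54 ± 1.28 for XO and 2.78 ± 0.107 for XY (SD, n = 3), and the exact permutation test of XX against XO gave p = 0.3 (adjusted 0.9).

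TACC3 and CKAP5 form a complex that stabilizes spindle microtubules. Tacc3 was present at 168, 134 and 242 normalized CPM in XX1, XX2 and XX3, at 72.0, 325 and 331 in XO1, XO2 and XO3, and at 91.1, 160 and 272 in XY1, XY2 and XY3. Ckap5 behaved in the opposite way, with 230, 236 and 200 in the XX pools, 416, 201 and 204 in the XO pools and 336, 222 and 203 in the XY pools in the same order. Ckap5 was thus highest in XO1 and XY1, where Tacc3 was lowest, and the remaining 7 pools lay between 200 and 236 normalized CPM. With TMM factors these 7 pools ranged more widely, from 156 in XO3 and 174 in XO2 to 289 in XX2.

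The number of Tacc3 UMIs per Ckap5 UMI was accordingly 0.173 in XO1 and 0.271 in XY1. It was 1.61 and 1.62 in XO2 and XO3, 0.720 and 1.34 in XY2 and XY3, and 0.732, 0.569 and 1.21 in XX1, XX2 and XX3. No pair of genotypes was separated by this ratio, the exact permutation p being 1 for XX against XO, 0.8 for XX against XY and 0.8 for XY against XO.

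**Figure D3:**
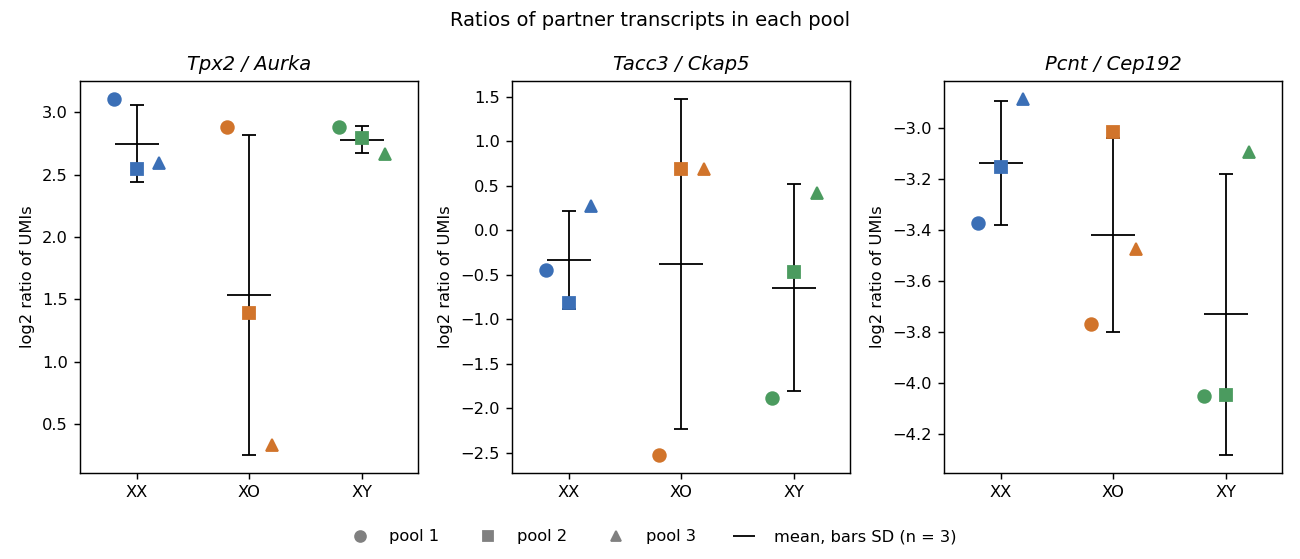
Log2 ratios of UMIs within each pool (vertical axes) for Tpx2 to Aurka, Tacc3 to Ckap5 and Pcnt to Cep192, 1 symbol per pool, with the mean and SD of 3 pools. For Tpx2 to Aurka, XO2 and XO3 (ratios of 2.63 and 1.26) lie below the other 7 pools, and for Tacc3 to Ckap5, XO1 and XY1 (0.173 and 0.271) lie below the other 7 pools.

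Of the components of the organizing centers, Cep192, whose product recruits pericentrin and the kinases to the centers, was at 64.5, 54.3 and 46.0 normalized CPM in XX1, XX2 and XX3, at 88.0, 68.8 and 97.1 in XO1, XO2 and XO3, and at 96.2, 67.1 and 78.5 in XY1, XY2 and XY3. All XX pools were below all XO and XY pools. With TMM factors XO2 (59.5) fell within the range of XX (51.4 to 68.8), while the XY pools stayed above it. Nedd1, which targets γ-tubulin to the spindle, was at 64.1, 56.7 and 68.2 in XX, 60.6, 132 and 151 in XO, and 56.7, 43.9 and 71.5 in XY pools of the same order. Here XO2 and XO3 were high and XO1 fell within the range of XX.

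Pcnt, which encodes the scaffold pericentrin, was low at 12 to 30 UMIs per pool. It was at 6.06, 5.95 and 6.09 normalized CPM in XX1, XX2 and XX3, at 6.21, 8.27 and 8.47 in XO1, XO2 and XO3, and at 5.58, 3.91 and 9.06 in XY1, XY2 and XY3. XX pools were all below XO pools, by a margin of less than 1 UMI for XO1, and with TMM factors XX and XO pools overlapped. Pcnt UMIs per Cep192 UMI ranged from 0.0964 to 0.135 in XX, from 0.0733 to 0.124 in XO and from 0.0602 to 0.117 in XY pools, and overlapped in all 3 comparisons (exact permutation p between 0.3 and 0.5).

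Plk1, with 8 to 29 UMIs per pool, was at 3.21, 5.60 and 7.01 normalized CPM in XX1, XX2 and XX3, at 4.14, 9.31 and 14.1 in XO1, XO2 and XO3, and at 5.58, 5.53 and 8.75 in XY1, XY2 and XY3. The 3 genotypes overlapped. In the annotation Pcnt and Nedd1 overlap other genes on the same strand, so reads there could be split, and Tacc3 and Plk1 overlap genes on the opposite strand, where the stranded counting separates them.

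For XX against XO oocytes, 3 of the 9 tested genes were called at an unadjusted p of 0.05 by the quasi-likelihood test of edgeR, and all 3 were higher in XO. Among all 10993 tested genes, 16.7% were called as higher in XO and 1.4% as higher in XX. The log2 fold change (XX minus XO) was -2.88 ± 0.89 (SE) for Aurka (adjusted p = 0.203), -0.86 ± 0.37 for Nedd1 (adjusted p = 0.264) and -0.62 ± 0.28 for Cep192 (adjusted p = 0.276). None of the 9 genes passed the adjustment over all genes, either with edgeR, where 0% of all tested genes passed, or with DESeq2, where 1.62% did. Without the filter on low counts Aurka passed with edgeR (-2.88 ± 0.48, adjusted p = 7.57e-07), as did 5.73% of all genes. Without XO1, Aurka (adjusted p = 0.00282), Nedd1 (adjusted p = 0.0166) and Tpx2 (adjusted p = 0.0241) passed, as did 22.7% of all genes tested. The XX pools lay below all XO pools for 2 of the 9 genes, Cep192 and Pcnt, as they did for 13.6% of all tested genes. This holds for spike-in factors, and with TMM factors the XX and XO pools of both genes overlapped. The median difference of the 9 genes was -0.78 beside -0.46 over all tested genes.

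Of these 3 calls only that of Aurka remained with TMM factors, at -2.38 ± 0.81 (adjusted p = 0.326), where 7.86% of all tested genes were higher in XO and 4.38% higher in XX. With this scaling Nedd1 was at -0.45 and Cep192 at -0.27, both no longer called, and Tacc3 (0.01) and Pcnt (0.03) turned their sign. Of all genes called in this comparison, 7.75% were higher in XX with spike-in factors and 35.8% with TMM factors. The prevailing direction turned under 2 other treatments of the data. With pools scaled to their ERCC totals, 290 genes were called as higher in XX and 53 as higher in XO. In the values with batch effects regressed out by the authors, these counts were 3993 and 855. When each of the 9 pools was left out in turn, Aurka was called in 8 fits, the exception being the fit without XX1 (-2.58, adjusted p = 0.648). Without XO3 it was -1.87. By limma on log2 of normalized CPM plus 0.5, Aurka (-2.04) was not called and Cep192 was. The difference of Aurka also shrank to -1.89 when pools were scaled to their ERCC totals (not called), to -0.78 ± 0.33 with hidden factors estimated by sva as covariates (called, adjusted p = 0.271) and to -0.31 ± 0.15 in the values from which the authors had regressed batch effects (not called). Nedd1 was called in 1 of the 9 fits, that without XO1, and Cep192 in 1, that without XO2. Aurkc (-1.41 ± 1.13) and Tpx2 (-1.03 ± 0.54) were not called, with differences close to or less than 2 SE.

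For XX against XY oocytes, 0 of the 9 genes were called by edgeR at an unadjusted p of 0.05, and 0 by DESeq2, while 4.39% of all tested genes were called as higher in XY and 1.41% as higher in XX. After adjustment 0.0819% of all tested genes passed and none of the 9. The difference of Cep192 was -0.55 ± 0.28 (adjusted p = 0.941), and its XX pools lay below all XY pools, as they did for 11.7% of all tested genes. The other 8 differences ranged from -0.35 for Tpx2 to 0.13 for Nedd1, with SEs between 0.36 and 1.11. The median over the 9 genes was -0.30 beside -0.19 over all genes. With TMM factors 0 of the 9 were called as well, against 2.47% of all tested genes higher in XY and 2.67% higher in XX, and the share of calls that were higher in XX moved from 24.3 to 51.9%. This comparison shares its XX pools with the preceding one, and the comparison of XY with XO shares pools with both.

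For XY against XO oocytes, 2 of the 9 genes were called and both were higher in XO, while 8.24% of all tested genes were called as higher in XO and 1.69% as higher in XY. They were Aurka at -2.54 ± 0.88 (XY minus XO, adjusted p = 0.485) and Nedd1 at -0.998 ± 0.37 (adjusted p = 0.485). None of the 9 passed the adjustment, which 0.0364% of all tested genes did. Both genes were also called with DESeq2 and with TMM factors, at -2.25 and -0.78, where 5.69% of all tested genes were higher in XO and 3.33% higher in XY. The share of calls that were higher in XY moved from 17.03 to 36.9% with this scaling. With the replicate number as a block the calls were the same 2, while the background rose to 14.1% higher in XO. Without XO3, XY1 or XY2, neither gene was called, and the difference of Aurka was then -1.54, -2.28 and -2.38. By limma Nedd1 was called and Aurka (-1.75) was not. Aurka was at -0.88 ± 0.25 with sva covariates (called, adjusted p = 0.0595) and at -0.13 ± 0.15 in the batch-regressed values (not called), and without the filter on low counts it passed the adjustment (adjusted p = 2.39e-05), as did 2.79% of all genes. Cep192, at -0.07 ± 0.28, was not called. The median over the 9 genes was -0.48 beside -0.30 over all genes.

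**Figure D4:**
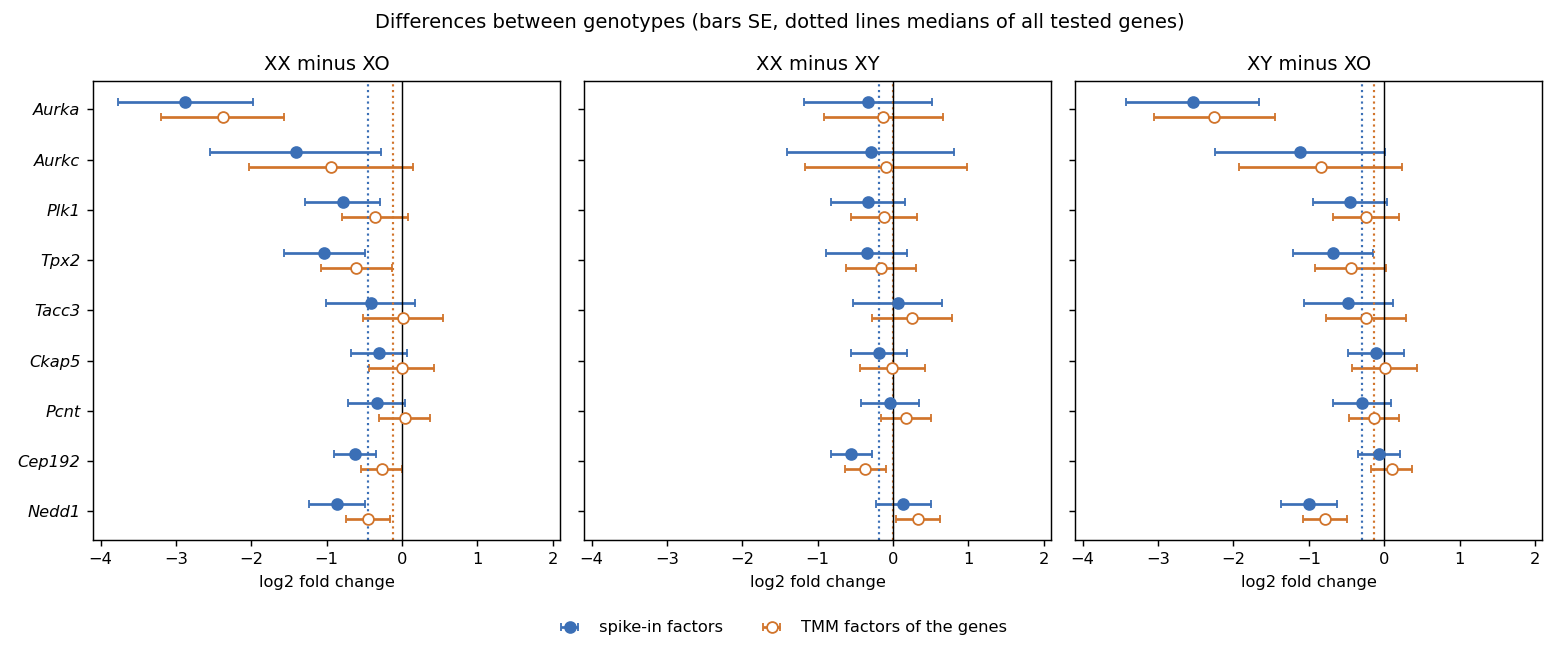
Log2 fold changes of the 9 tested genes (horizontal axes, first minus second genotype, bars SE) in the 3 comparisons, with spike-in factors (filled symbols) and TMM factors of the genes (open symbols), and the median of all tested genes as dotted lines. Aurka lies farthest from 0 in both comparisons with XO (-2.88 and -2.54 with spike-in factors), and of the 9 differences between XX and XY that of Cep192 (-0.55 ± 0.28) is the farthest from 0.

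The weight of XO1 and XY1 was examined by leaving out both, a choice made after their values had been seen. For XX against XO, 6 of the 9 genes were then called as higher in XO (Aurka, Aurkc, Plk1, Tpx2, Tacc3, Nedd1), and the share of all tested genes called in this direction rose to 35.3%. Aurka was at -3.40 ± 0.41 (adjusted p = 0.000227), Aurkc at -1.94 ± 0.33 (adjusted p = 0.000883), Tpx2 at -1.40 ± 0.31 (adjusted p = 0.0039) and Nedd1 at -1.12 ± 0.27 (adjusted p = 0.0064), in a fit in which 30.2% of all genes passed the adjustment. With TMM factors and the same pools, Aurka, Aurkc, Tpx2 and Nedd1 were called as higher in XO and Ckap5 as higher in XX (0.64, adjusted p = 0.0552), against a background of 24.5% higher in XO and 19.6% higher in XX, and 30.6% of all genes passed the adjustment. When the pools numbered 1 of all 3 genotypes were left out, Plk1 and Tacc3 were not called, and Aurka (-3.06 ± 0.49, adjusted p = 0.0178) and Aurkc (-1.67 ± 0.40, adjusted p = 0.0291) passed the adjustment, as did 16.6% of all genes. For XX against XY, Aurkc alone was called, at -0.87 ± 0.33 (adjusted p = 0.217), against 13.7% of genes called as higher in XY. For XY against XO the calls became 4 (Aurka, Aurkc, Tpx2, Nedd1), against 21% of all tested genes called as higher in XO.

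Oocyte genes outside the spindle moved with Aurka among the XO pools. The sum of the 10 oocyte markers ranged from 20745 to 21616 normalized CPM in XX, from 15443 to 25833 in XO and from 17026 to 20841 in XY pools. Zp1, a component of the egg coat, was at 14.0, 759 and 2166 normalized CPM in XO1, XO2 and XO3 and at 48.0 to 112 in XX pools. The growth factor Gdf9 was at 339, 869 and 2432 in the same XO pools and at 252 to 319 in XX pools, and the transcription factor Nobox at 56.4, 522 and 1138 and at 62.0 to 109. In contrast, Oosp1, Ddx4 and Dazl were highest in XO1 among XO pools, as was Ckap5, with Oosp1 at 9137 in XO1 and 2494 and 2495 in XO2 and XO3. Their part in the differences of the spindle genes was not tested.

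In the wider pathway, 54 of 69 listed genes that were in the matrix passed the filter. For XX against XO, 12 of the 54 were called as higher in XO (16.7% in the background) and 0 as higher in XX, and 5 remained with TMM factors. They comprised 1 of 5 genes of the chromosomal passenger complex and its recruiters, 3 of 4 regulators of Aurora A and polo kinases, 3 of 11 of the γ-tubulin ring complex and augmin, 0 of 11 of the pericentriolar material, 3 of 13 of the Ran pathway and spindle assembly, and 2 of 10 microtubule plus-end proteins and stabilizers. With TMM factors these counts were 1, 1, 1, 0, 0 and 2 in the same order. The median difference was -0.44 beside -0.46 over all tested genes. For XX against XY, 0 of the 54 were called by edgeR at an unadjusted p of 0.05, and for XY against XO 7 were called as higher in XO (8.24% in the background). With the replicate number as a block the 7 became 12, and the background 14.1%. None passed the adjustment in any of the 3 comparisons.

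The passenger subunit that was called was Cdca8, which encodes borealin. It was at 2.49, 3.15 and 2.44 normalized CPM in XX1, XX2 and XX3, at 2.07, 11.9 and 35.0 in XO1, XO2 and XO3, and at 4.18, 2.60 and 6.64 in XY1, XY2 and XY3. Its log2 fold change was -2.57 ± 0.82 for XX minus XO (adjusted p = 0.203) and -1.84 ± 0.78 for XY minus XO (adjusted p = 0.498). XO2 and XO3 were above all other pools and XO1 below all of them, the order also found for Aurka. The scaffold Incenp had 30.3, 16.5 and 25.9 in XX, 6.73, 40.8 and 43.5 in XO and 12.5, 18.9 and 29.3 in XY pools, and was not called. Birc5 (survivin), Haspin and Bub1, which encodes the kinase that marks centromeres for the complex, were not called in any comparison.

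Beside Cdca8, the largest called differences of listed genes for XX against XO were those of Tubg2 and Tubgcp2. Tubg2, which encodes a γ-tubulin, was at 1.78, 2.45 and 6.09 normalized CPM in XX pools and at 2.59, 22.2 and 39.0 in XO pools (-2.59 ± 0.98, adjusted p = 0.233). Tubgcp2, a subunit of the γ-tubulin ring complex, was at 9.62, 8.75 and 8.84 in XX, 3.62, 38.8 and 58.1 in XO and 6.97, 7.49 and 9.96 in XY pools, and was called in both comparisons with XO (-1.88 ± 0.71 and -2.03 ± 0.72). Numa1, whose product focuses spindle poles, was at 13.9, 13.3 and 18.0 in XX, 10.4, 42.9 and 83.0 in XO and 17.2, 12.7 and 17.2 in XY pools, and was also called in both, at -1.59 ± 0.59 for XX minus XO (adjusted p = 0.229) and -1.53 ± 0.59 for XY minus XO (adjusted p = 0.485). In all 4 genes XO1 lay within or below the range of the XX pools and XO2 and XO3 above it. With TMM factors Tubgcp2 (-1.41) and Numa1 (-1.12) were no longer called for XX against XO, nor Cdca8 (-1.57) for XY against XO, with unadjusted p-values just above the threshold.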

How the data were processed

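RNA of 9 pools of mouse oocytes, 3 per genotype, was analysed. The authors aligned stranded reads with HISAT2 to GRCm38 (mm10) and the Gencode transcriptome and deposited 5′ UMI counts per gene, with 79 ERCC spike-ins. The deposited signal, called normalized CPM, was checked to be these counts divided by the gene total and the TMM factor of the spike-ins. The deposited log2 values had batch effects regressed out by the authors with sva, and served here only as an alternative. The XO column without a number was taken as XO1.

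Counts were tested with edgeR 4.0.16 (glmQLFit and glmQLFTest, filterByExpr by genotype, 10993 genes, all 9 pools in 1 fit, spike-in factors, two-sided). As in the study, the threshold was an unadjusted p of 0.05, with Benjamini-Hochberg adjusted p over all tested genes beside it. The p-values measure the spread between pools, whose separate origin the labels describe only as biological triplicates. Shares and ratios were compared by exact permutation tests with scipy 1.17.1. Alternatives used DESeq2 1.42.0, limma 3.58.1 and sva 3.50.0 in R 4.3.3.

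Whether equal replicate numbers pair the pools was judged from how deviations from genotype means correlated across tested genes. It was 0.830, 0.278 and 0.773 between XO and XY pools of the same number, which were taken as paired from these values alone, 0.468, -0.447 and 0.679 for XX and XO, and 0.435, -0.060 and 0.726 for XX and XY. Between XO and XY pools of unequal number it ranged from -0.824 to 0.721. The highest of these was that of XO2 with XY3, above the 0.278 of XO2 with XY2. A pairing of the pools numbered 2 is therefore not shown by these values. The 10 genes and the lists were chosen with earlier results of these data known. All 10 genes are named with every value, and of 70 listed pathway genes (69 in the matrix) the passenger subunits and, per comparison, the 3 largest called differences in each direction are named.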

Additional observations from a re-analysis of the deposited data

How the results depend on the processing

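Calls of the 10 genes depended on scaling and on single pools. For XX against XO the 3 calls became 1 with TMM factors, with DESeq2, with limma at either pseudocount (0.5 or 1), with sva covariates and with TMM factors plus the replicate block, 0 with ERCC totals, 6 without XO1 and XY1, and 5 with TMM factors without XO1 and XY1 or without the pools numbered 1. For XX against XY the 0 became 1 with batch-regressed values, with sva covariates and without XO1 and XY1. For XY against XO the 2 became 0 with ERCC totals, 1 with limma at either pseudocount and 4 without XO1 and XY1. With batch-regressed values the calls in both comparisons with XO fell on other genes and in the other direction. For XX against XO these were 2 (Tacc3, Aurkc), both higher in XX, as were 3993 of all tested genes. For XY against XO these were 3 (Tpx2, Tacc3, Aurkc), all higher in XY. Without a single pool the counts ranged from 0 to 5, from 0 to 0 and from 0 to 4, with the highest without XO1. Reversals of sign of a difference called in either fit were found with batch-regressed values in Aurkc (2.11), Tacc3 (1.09) and Nedd1 (0.13) for XX minus XO and Aurkc (1.80), Tpx2 (0.53) and Tacc3 (0.81) for XY minus XO, with TMM factors in Ckap5 for XX minus XO without XO1 and XY1 (0.64) or without the pools numbered 1 (0.67), and in Cep192 with ERCC totals (0.21) and sva covariates (0.022). By limma on the batch-regressed values, the adjusted p for XX minus XO was 0.00091 for Aurkc and 0.00099 for Tacc3. For XY minus XO it was 0.0030 for Aurkc, 0.0070 for Tacc3 and 0.0286 for Tpx2. In these 2 comparisons 3783 and 3685 of the 10993 tested genes passed the adjustment. The cause of the reversals was not tested. The replicate block changed no call of the 9 genes, and Aurkb was tested only without the filter and not called.

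Of the 54 pathway genes, the 12 calls for XX against XO, all higher in XO, became 5 (TMM factors, with or without the block), 0 (ERCC totals) and 7 and 6 (limma with 0.5 and 1). With batch-regressed values they became 23, of which 20 were higher in XX and 3 in XO, beside 3993 and 855 of all tested genes. With sva they became 4, 2 higher in XX and 2 in XO. Without XO1 and XY1 they became 19, all higher in XO, and with TMM factors 20, of which 5 were higher in XX and 15 in XO. The 0 for XX against XY became 5 (batch-regressed, 2 higher in XX and 3 in XY), 1 (sva, the block, or without the pools numbered 1 at either scaling), 4 (without XO1 and XY1) and 2 (the same with TMM factors). The 7 for XY against XO became 3 (TMM factors), 0 (ERCC totals), 2 (limma at either pseudocount), 22 (batch-regressed, 18 higher in XY and 4 in XO), 11 (sva, 4 higher in XY and 7 in XO), 15 (no filter), 12 (the block), 15 and 14 (without XO1 and XY1, spike-in and TMM factors) and 13 and 12 (without the pools numbered 1). Without a single pool they ranged from 1 to 17, from 0 to 0 and from 0 to 17.

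Of all tested genes, the 1986 calls for XX against XO became 343 (ERCC totals, 290 higher in XX), 4848 (batch-regressed, 3993 higher in XX), 3953 (no filter), 4548 and 5039 (without XO1 and XY1) and 3802 and 3949 (without the pools numbered 1). The 638 for XX against XY became 284, 2542, 1214, 1896, 1773, 1126 and 1135 in the same order, 2239 with sva and 1007 with the block. The 1092 for XY against XO became 136, 4835, 2735, 2806, 3164, 2671 and 2867 in that order, 2006 with sva, 1827 with the block and 1751 with the block and TMM factors. Without a single pool they ranged from 828 to 4073, from 384 to 1280 and from 373 to 3470. Differences of shares and ratios moved by less than 1 SD of the pools under the alternatives, although that of the Aurka share for XX minus XY ranged from -8.49 to 1.11 percentage points without a single pool and that of the log2 Tacc3 to Ckap5 ratio for XX minus XO from -1.02 to 0.59. Depth limited Aurkb, with 7 to 9 UMIs per genotype, and Plk1 and Pcnt, with at most 30 UMIs per pool.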
